A study of Mus musculus with 4 samples.

Results

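The 40 genes described here form a list of cell cycle genes, chosen by name and not by their values, and all 40 were present among the 16798 genes of the count table. They cover the replication helicase subunits Mcm2 to Mcm7, enzymes of nucleotide supply, cyclins with Cdk1, mitotic kinases, kinetochore and spindle proteins, and the chromatin proteins Mki67, Top2a and Hmgb2. Levels were measured by single-cell RNA sequencing of CD45+ immune cells sorted from the cortex of mice aged 18 months, in 4 libraries that each pooled 2 cortices. ADAM libraries (2 replicates, ADAM 1 and ADAM 2) came from APP/PS1 mice that also carry Axl-/- and Mertk-/-, and AD libraries (2 replicates, AD 1 and AD 2) from APP/PS1 mice with no further deletion in the labels. Both groups thus carry the amyloid-forming APP/PS1 transgenes, and neither is free of amyloid. Axl and Mertk are receptor tyrosine kinases by which macrophages and microglia take up dying cells, and the labels name no Cre driver for either deletion.

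A dividing cell first builds the DNA copying machinery and deoxynucleotides (S phase), then the spindle, the kinetochores and the checkpoint that holds chromosome separation back until all are attached (G2 and M phase). Transcription follows that order. E2F factors switch on S phase genes, while the MuvB complex with B-Myb and Foxm1 switches on G2/M genes through a promoter element called the cell cycle genes homology region, often beside CCAAT boxes bound by NF-Y. In resting cells the same element holds those genes silent. Microglia renew themselves by slow local division, and their division is known to increase around amyloid plaques.

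The authors gave 14628 of 15451 deposited cells 1 of 9 classes, among them a class of proliferating cells, and gave most microglia 1 of 7 numbered states. UMIs, each of which stands for 1 captured RNA molecule, were added up for every class or state within a library. Cells with a class numbered 3107 to 4362 per library, with 13378168 to 27240070 UMIs. Axl over these cells stood at 5.23 and 5.28 CPM (counts per 1e+06 UMIs) in ADAM 1 and ADAM 2, against 72.7 and 58.1 in AD 1 and AD 2, as the labels say. Mertk was read at 191 and 182 CPM in ADAM, against 183 and 245 in AD, and since the deleted part of the gene is not stated, those UMIs check nothing. A barcode was shared by more than 1 library in 48 cells (24 barcodes). The replicates are separate pools per the labels, and p-values measure the spread between these pools.

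In promoter windows the homology region was found in most G2/M genes and few S genes, while the CCAAT box was common in both. RefSeq windows on GRCm38.p6, from 250 bases before to 50 after the start, were on hand for 32 members. The homology region was searched as TTTGAA or TTCGAA, the CCAAT box as CCAAT and an E2F site as TTTNNCGC with C or G at each N, on both strands. The homology region was found in 14 of 17 G2/M members (82.4%), in 1 of 9 S members (11.1%) and in 19.4% of the windows of 27025 genes. The CCAAT box was in 15 of 17 G2/M members (88.2%), in 7 of 9 S members (77.8%) and in 37.8% of all genes. A window with both a homology region and a CCAAT box occurred in 82.4% of G2/M members and 7.57% of all genes. The E2F site was in 3 of 9 S members, in 0 of 17 G2/M members and in 2.34% of all genes. A match is a string of letters and not a shown binding site. The members without a window were Aurkb, Ccna2, Ccne2, Kif20a, Mcm4, Spc24, Stmn1 and Tpx2.

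The 150 bases before the start are printed for Hmgb2, Top2a and Ube2c, the G2/M members of most UMIs in proliferating cells with both elements there, and for Mcm6 and Mcm5, the only S members with an E2F match there. Capitals mark CCAAT boxes and homology regions in the first 3 and E2F matches in the other two, read on either strand. The Mcm6 and Mcm5 windows also hold 2 CCAAT boxes each, left in lower case. The windows lie at chr8:57511693-57511842 (plus strand, Hmgb2), chr11:99024190-99024339 (minus, Top2a), chr2:164769779-164769928 (plus, Ube2c), chr1:128359706-128359855 (minus, Mcm6) and chr8:75109359-75109508 (plus, Mcm5).
Hmgb2: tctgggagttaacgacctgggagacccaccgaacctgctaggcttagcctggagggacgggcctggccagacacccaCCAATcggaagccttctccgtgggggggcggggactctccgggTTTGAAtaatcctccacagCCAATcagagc
Top2a: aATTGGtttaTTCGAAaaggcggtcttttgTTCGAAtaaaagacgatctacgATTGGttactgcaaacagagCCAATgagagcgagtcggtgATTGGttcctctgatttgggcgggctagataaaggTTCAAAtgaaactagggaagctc
Ube2c: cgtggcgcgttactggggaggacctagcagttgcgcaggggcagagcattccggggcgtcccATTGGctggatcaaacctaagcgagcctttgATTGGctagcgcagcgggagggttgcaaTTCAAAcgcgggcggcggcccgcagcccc
Mcm6: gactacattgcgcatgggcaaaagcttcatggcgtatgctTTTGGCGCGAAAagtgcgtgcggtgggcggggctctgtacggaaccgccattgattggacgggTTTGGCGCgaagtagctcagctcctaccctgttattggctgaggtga
Mcm5: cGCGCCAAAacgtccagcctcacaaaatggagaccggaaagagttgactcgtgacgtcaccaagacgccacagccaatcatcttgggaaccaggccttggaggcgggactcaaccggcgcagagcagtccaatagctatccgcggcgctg

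The members were concentrated in the 193 proliferating cells, although to very different degrees. These cells made up 1.25% of all cells and held 28.7% of the 91555 UMIs of the 40 members. As genes that resting cells also use, 7 members (Stmn1, Hmgb2, Tubb5, Cks1b, Cks2, Rrm1 and Cenpa) are called broad here. Of the UMIs of the 33 others the class held 47.3%. The label does not rank members by concentration. The broad member Stmn1 had 47.1% of its UMIs in the class, while Mcm3, among the 33 others, had 12.2%. The class was made by the authors from the same cells and genes, so its levels are a description and not a test.

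Rrm2 and genes of mitosis were the most concentrated. The proliferating class held 85.2% of the UMIs of Rrm2, the regulated subunit of ribonucleotide reductase, 80.1% of Nusap1, a spindle protein, and 80% of Ccna2, the cyclin of S phase and mitotic entry. For Bub1, a checkpoint kinase, the share was 77.3%, for Kif11, the motor that separates spindle poles, 74.1%, and for the proliferation antigen Mki67 70.8%. The other genes of nucleotide supply had less, with 56.3% for the thymidine kinase Tk1, 21.2% for Rrm1, the constant subunit of ribonucleotide reductase, and 21.0% for the thymidylate synthase Tyms.

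The helicase subunits were spread far more widely. The shares of Mcm2 to Mcm7 ran from 12.2% (Mcm3) to 30.1% (Mcm5). Tubb5, a tubulin of all cells, had the lowest share at 10.9%, and Hmgb2, a chromatin protein, 24.4%.

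**Figure D1:**
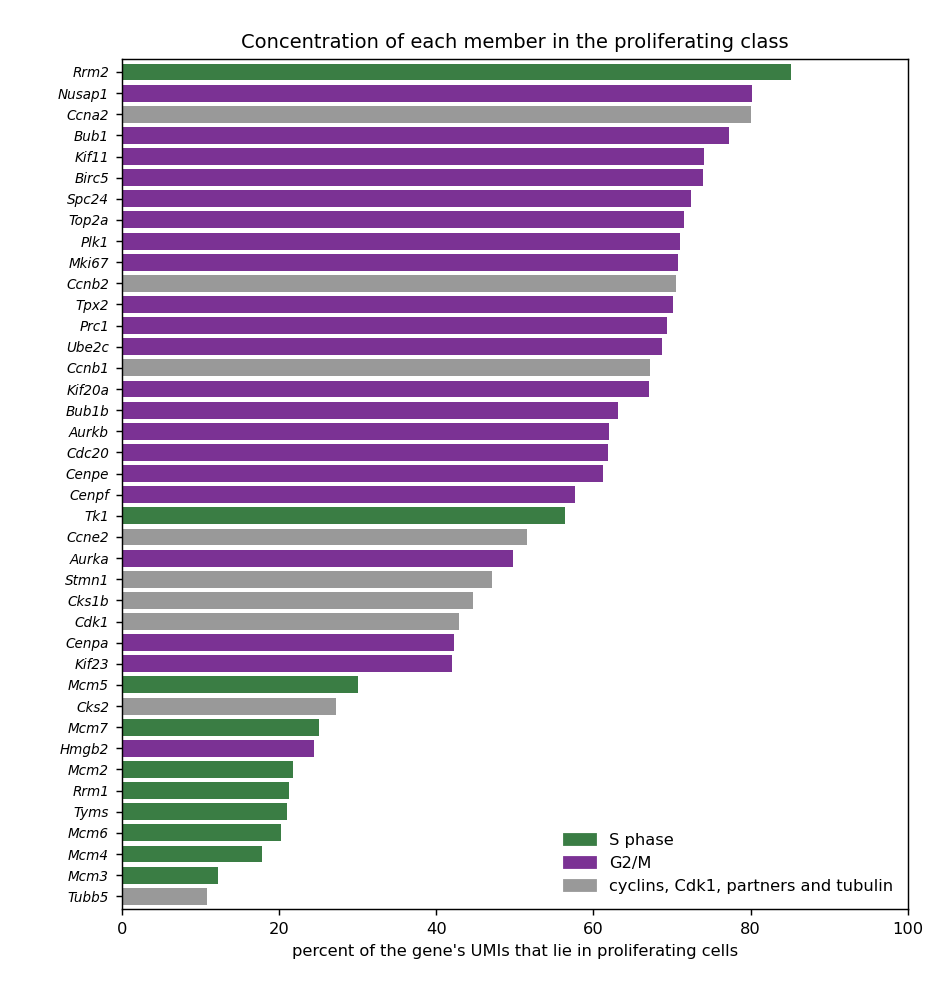
Percent of each member's UMIs over all deposited cells (x axis) that lie in the 193 proliferating cells, 1 bar per gene, coloured by phase. The bars run from 85.2% for Rrm2 to 10.9% for Tubb5, and the 6 helicase subunits Mcm2 to Mcm7 all lie at or below 30.1%.

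Outside the class, single members had their own cells. Neutrophils, which do not divide in tissue, held Hmgb2 at 930 CPM over all libraries, against 108 CPM in microglia. The same neutrophils held Cks2, a Cdk partner, at 114 CPM, against 10.3 CPM in microglia. Kif23, a motor of cytokinesis, reached 61.8 CPM in neutrophils (147 UMIs), against 0.414 CPM in microglia. Rrm2 and Cdk1 had 0 UMIs in the 757 neutrophils, which allows up to 1.26 CPM for each, so the list was found there only in part. Stmn1, a tubulin-binding protein, stood at 2352 CPM in the 23 oligodendrocytes (290 UMIs), above its 1345 CPM in proliferating cells.

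Among microglia, every member had at least 1 UMI, but few cells held several. Bub1 had 1 UMI in the 9077 microglia with a state, Nusap1 10 UMIs and Mki67 15, against 16115 for Tubb5. To count cells in which members occurred together, each cell was thinned to 2000 UMIs and cells with at least 5 members were counted. There were 23 such cells among 8222 microglia (0.28%), 11 among 2884 T and NK cells (0.381%) and 1 among 500 neutrophils (0.2%), which are cells that do not divide. In proliferating cells the count was 142 of 189 (75.1%), and among cells marked as doublets 25 of 820 (3.05%). Median depths before thinning ran from 4719.5 to 6170 UMIs per microglia and from 1704 to 2691.5 per neutrophil in the 4 libraries.

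The sum of the 33 members other than the broad ones was lower in state 5 than in states 0 and 1 in each of the 4 libraries. Over all libraries it was 107 CPM in state 0, which is led by homeostatic genes, 142 in state 1, 95.9 in state 3, 88.1 in state 4, 79.6 in state 5, which is led by plaque-associated genes, and 84.0 in state 6. State 2 had 166 CPM from 141 UMIs, and red cell markers summed to 170234 CPM in its ADAM 2 cells and choroid plexus markers to 61628 CPM in its AD 1 cells. Not all members had this order. The helicase subunits alone summed to 77.5 CPM in state 0 and 48.6 in state 5. Of the roles, only the kinetochore genes, with Cenpa, summed higher in state 5, at 11.7 CPM against 9.16. Scaled as in the genotype tests below, Cdk1 had 9.43 and 8.58 CPM in ADAM and 11.5 and 10.8 in AD in state 5. In state 0 it had 4.80 and 2.20 CPM in ADAM and 2.56 and 2.17 in AD. Cells with at least 5 members after thinning were 16 of 4725 in state 0 and 1 of 2645 in state 5. The cell cycle inhibitor Cdkn2a was higher in state 5, at 15.8 and 23.5 CPM in ADAM and 24.5 and 13.4 in AD, than in state 0, at 3.75 and 3.69 CPM in ADAM and 4.56 and 4.65 in AD. The states were made from these genes and cells, and no test was made between them.

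**Figure D2:**
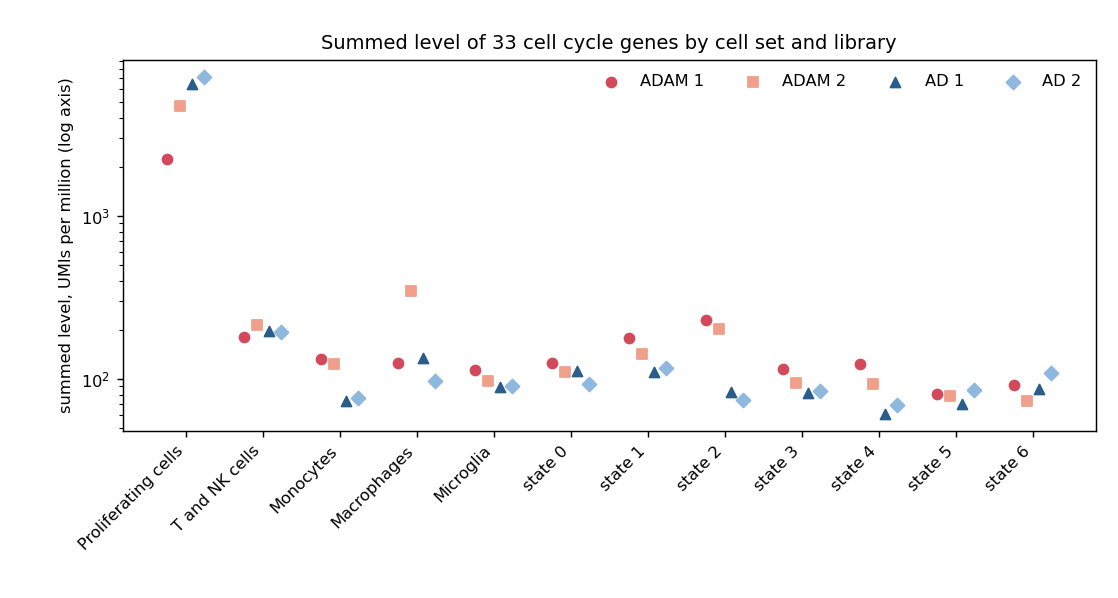
Summed level of the 33 members without the broad ones, in CPM on a log axis, for each cell set, with 1 point per library (ADAM 1, ADAM 2, AD 1 and AD 2 from left to right). In proliferating cells ADAM stands at 2240 and 4729 and AD at 6501 and 7177, while all microglia sets lie at 229 or lower.

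The proliferating class was a mixture of cell types, and the mixture differed by library. Each cell was given the marker list with the most UMIs, and cells led by the list of plaque-associated microglia (DAM markers) were counted with those led by microglial markers. In ADAM 1, 45 of 63 cells were led by microglial markers and 13 by T and NK markers. In ADAM 2, 11 of 52 cells were led by microglial, 12 by T and NK, 17 by monocyte, 10 by neutrophil and 2 by erythroid markers. In AD 1, 15 of 38 cells were led by microglial and 21 by T and NK markers, and in AD 2, 18 and 16 of 40. The neutrophil markers summed to 18513 CPM in ADAM 2 and 112 CPM in ADAM 1, against 3.43 and 176 CPM in AD 1 and AD 2. They were also high in other classes of ADAM 2. In microglia they summed to 15.2 and 779 CPM in ADAM 1 and ADAM 2, against 17.4 and 54.5 in AD. In T and NK cells they summed to 19.3 and 1728 CPM in ADAM, against 11.4 and 36.8 in AD. The part of this background in the marker leads was not tested. The T and NK markers summed to 1187 and 960 CPM in ADAM, against 5866 and 2916 in AD. The DAM markers summed to 1134 and 942 CPM in ADAM, against 398 and 441 in AD. The part of these differences in the results below was not tested, beyond the values given with sets of cells left out.

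The class also held cells with almost none of the 40 genes, nearly all of them in ADAM 1. Cells with fewer than 5 members numbered 22 of 63 in ADAM 1 and 3 of 52 in ADAM 2, against 0 of 38 in AD 1 and 1 of 40 in AD 2. The 22 cells of ADAM 1 were not shallow, with a median of 12258.5 UMIs, and 20 of them were led by microglial markers. Their 40 members summed to 442 CPM, against 608 CPM in all ADAM 1 microglia. Their markers differed from those of these microglia. Microglial markers summed to 2054 CPM in the 22 cells, against 19681 in the microglia, and DAM markers to 1660, against 4751. Macrophage markers summed to 430 CPM, against 21.5, and neutrophil markers to 330, against 15.2. Cdkn2a, which blocks entry into the cycle, stood at 462 CPM in the 22 cells, with 116 UMIs in 12 of them. It stood at 30.1 CPM in the other 41 cells of the library. Over the whole class Cdkn2a was 169 and 17 CPM in ADAM, against 82.4 and 54.1 in AD. Cdkn2a and this split were chosen after the values were seen.

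After thinning to 2000 UMIs, 50% of ADAM 1 cells of the class (31 of 62, exact 95% interval 37.0 to 63.0) and 90.2% of ADAM 2 (46 of 51, 78.6 to 96.7) had at least 5 members, against 86.1% of AD 1 (31 of 36, 70.5 to 95.3) and 85.0% of AD 2 (34 of 40, 70.2 to 94.3). ADAM 1 stood apart and the other 3 libraries overlapped. With 2 libraries a genotype an exact permutation test has 6 arrangements and cannot give a two-sided p below 0.333, and here it gave 1.0. The median number of members per cell before thinning was 12 and 28 in ADAM, against 23.5 and 25 in AD. Such counts rise with depth, and median depths in the class were 11937 and 15401.5 UMIs in ADAM, against 6907.5 and 11377.5 in AD.

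**Figure D3:**
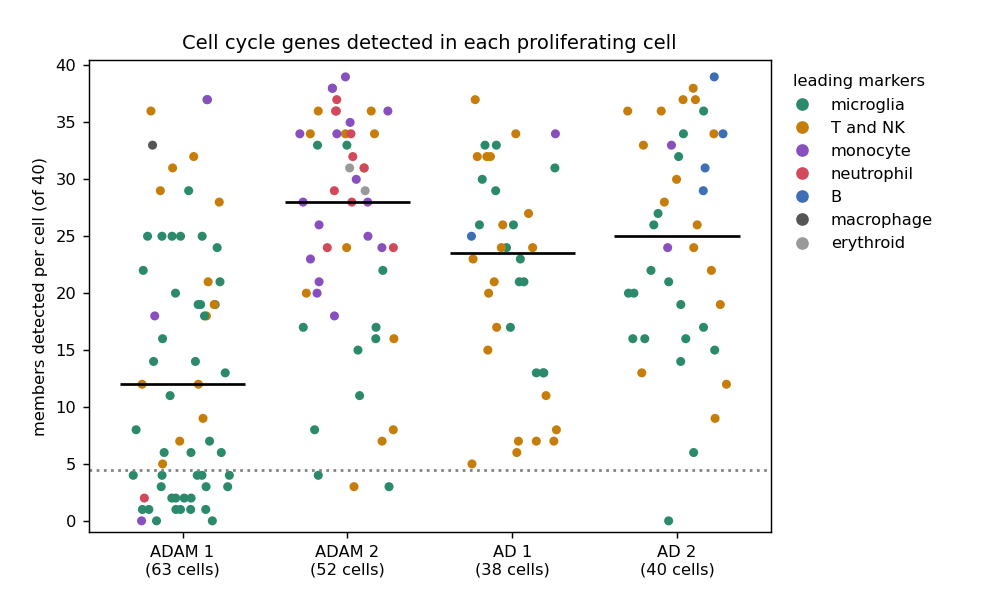
Number of the 40 members detected in each proliferating cell (y axis), by library, with points coloured by the leading marker list and the median as a bar. Below the dotted line, which marks fewer than 5 members, lie 22 cells of ADAM 1 and 3 of ADAM 2, against 0 of AD 1 and 1 of AD 2.

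The share of the class among cells with a class was 1.86% in ADAM 1 (63 of 3382, exact 95% interval 1.43 to 2.38) and 1.38% in ADAM 2 (52 of 3777, 1.03 to 1.80), against 1.22% in AD 1 (38 of 3107, 0.867 to 1.68) and 0.917% in AD 2 (40 of 4362, 0.656 to 1.25). Both ADAM libraries lay above both AD libraries. The exact permutation test gave p = 0.333, the smallest it can give. Without the 216 microglia and T cell doublets, 209 of them in AD 1, the shares were 1.86 and 1.38% in ADAM, against 1.31 and 0.918% in AD. Among cells other than microglia they were 5.92 and 3.04% in ADAM, against 2.93 and 3.18% in AD, and ADAM 2 lay between the AD libraries. Class cells with at least 5 members before thinning were 41 of 3382 and 49 of 3777 in ADAM. In AD they were 38 of 3107 and 39 of 4362, and by that count ADAM 1 lay between the AD libraries. That filter uses the members themselves. The class's own makeup differed as above, so the shares count different mixtures of cells, and intervals cover counting error only.

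Within proliferating cells, no member passed the genotype test, while the folds of G2/M genes were mostly more negative than those of the helicase subunits. Adjusted p-values are from the quasi-likelihood test of edgeR over all genes of a set, log2 folds are ADAM over AD, and CPM from here on are after TMM scaling. All 40 members were tested and 0 were called at an adjusted p under 0.05, where 0.0842% of 7124 genes were called. At an unadjusted p under 0.05 there were 10 of 40 members (25.0%), against 8.73% of all genes tested, and all 10 were G2/M members with a negative fold. Genes picked by a small p tend to have groups that do not overlap, so where they are described below that order adds no support. The share of all genes with such groups was not counted. The median log2 fold was −0.75 over the 40 members and 0.028 over all genes tested, and 2 members (Ccne2 and Mcm7) had a positive fold. DESeq2 and limma-voom also called 0 members, here and in each of the other 9 sets. By phase, the median was −1.01 for the 21 G2/M members and −0.17 for the 10 S members, a difference that was not tested. The class held 12.2% (Mcm3) to 30.1% (Mcm5) of the UMIs of the helicase subunits. For the G2/M members it held 24.4% (Hmgb2) to 80.1% (Nusap1). The part of this uneven concentration in the folds was not tested.

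Among spindle proteins, Prc1, which bundles microtubules at the midzone, had 62.2 and 143 CPM in ADAM, against 296 and 268 CPM in AD. Its log2 fold of −1.45 (SE 0.44) had the smallest p of the list, with an edgeR adjusted p of 0.349. Nusap1, which joins microtubules to chromosomes, had 63.5 and 183 CPM in ADAM, against 292 and 320 in AD. For both genes ADAM 1 was lowest and the groups did not overlap.

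The kinetochore genes showed the same order of libraries. Cenpf, a large kinetochore protein, had 91.2 and 185 CPM in ADAM, against 289 and 387 in AD (log2 fold −1.29, SE 0.42, edgeR adjusted p = 0.387). Cenpe, a kinetochore motor, had 47.0 and 102 CPM in ADAM, against 151 and 223 in AD. Cenpa, the histone of centromeres and a broad member, had 153 and 323 CPM in ADAM, against 443 and 397 in AD (log2 fold −0.81, SE 0.42).

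The kinases and the anaphase-promoting complex followed. Aurkb, the kinase of the chromosomal passenger complex, had 34.5 and 83.8 CPM in ADAM, against 117 and 135 in AD. Plk1, a kinase of mitotic entry, had 31.8 and 57.0 CPM in ADAM, against 85.9 and 102 in AD. Ube2c, the ubiquitin-conjugating enzyme of the anaphase-promoting complex, had 175 and 363 CPM in ADAM, against 619 and 684 in AD (log2 fold −1.27, SE 0.42, edgeR adjusted p = 0.406). In all 3 genes both ADAM libraries were below both AD libraries, and ADAM 1 was again the lowest.

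Bub1 and Kif23 were the other 2 of the 10 besides Mki67. Bub1 had 23.5 and 38.4 CPM in ADAM, against 79.1 and 56.6 in AD, and it lies 0.9 Mb from Mertk on chromosome 2, where Nusap1 lies 9.08 Mb and Bub1b 10.1 Mb away. Kif23 had 53.9 and 75.6 CPM in ADAM, against 124 and 148 in AD. Mki67 had 109 and 276 CPM in ADAM, against 426 and 467 in AD (log2 fold −1.21, SE 0.46, edgeR adjusted p = 0.479). Top2a, the topoisomerase that untangles chromosomes, had 200 and 521 CPM in ADAM, against 646 and 811 in AD.

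The S phase members were mixed in their order of libraries. Mcm6 had 113 and 176 CPM in ADAM, against 138 and 156 in AD, and Mcm3 had 117 and 199 CPM in ADAM, against 175 and 160 in AD. Mcm7 had 70.4 and 178 CPM in ADAM, against 131 and 102 in AD. For these genes, and for Mcm2, ADAM 1 was lowest, ADAM 2 was highest and AD lay between. Mcm5 had 63.5 and 101 CPM in ADAM, against 127 and 107 in AD, so both ADAM libraries were below both AD libraries, as they were for Tyms. Mcm4, Rrm1 and Tk1 had ADAM 1 lowest and AD 1 highest. Rrm2 and the G2/M member Hmgb2 also had ADAM 1 lowest and ADAM 2 highest, with Hmgb2 at 1041 and 3085 CPM in ADAM, against 3022 and 2822 in AD. Ccne2, the cyclin of S phase entry, had 24.9 and 46.5 CPM in ADAM, against 27.5 and 27.3 in AD (log2 fold 0.39, SE 0.50).

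By role, the median log2 fold was −0.081 over the 6 helicase subunits, −0.50 over the 4 nucleotide enzymes and −0.54 over the 7 cyclins, Cdk1 and its partners. It was −0.95 over the 5 kinetochore genes, −1.02 over the 6 spindle genes and −1.07 over the 5 mitotic kinases. Tyms, which has the most UMIs of the nucleotide enzymes over all deposited cells, had 62.2 and 133 CPM in ADAM, against 134 and 166 in AD. Cks2, a Cdk partner, had 137 and 354 CPM in ADAM, against 272 and 334 in AD, and Tubb5 had 1030 and 1337 CPM in ADAM, against 1595 and 1674 in AD. The mitotic cyclins, which bind Cdk1, stood lower in both ADAM libraries, with Ccnb1 at 42.8 and 96.6 CPM in ADAM, against 134 and 137 in AD, and Ccnb2 at 123 and 209 CPM in ADAM, against 320 and 260 in AD. Ccna2, which acts from S phase on, overlapped at 92.5 and 185 CPM in ADAM, against 206 and 168 in AD. Aurka, the kinase of spindle poles, overlapped as well, with 19.3 and 51.2 CPM in ADAM, against 34.4 and 44.9 in AD.

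**Figure D4:**
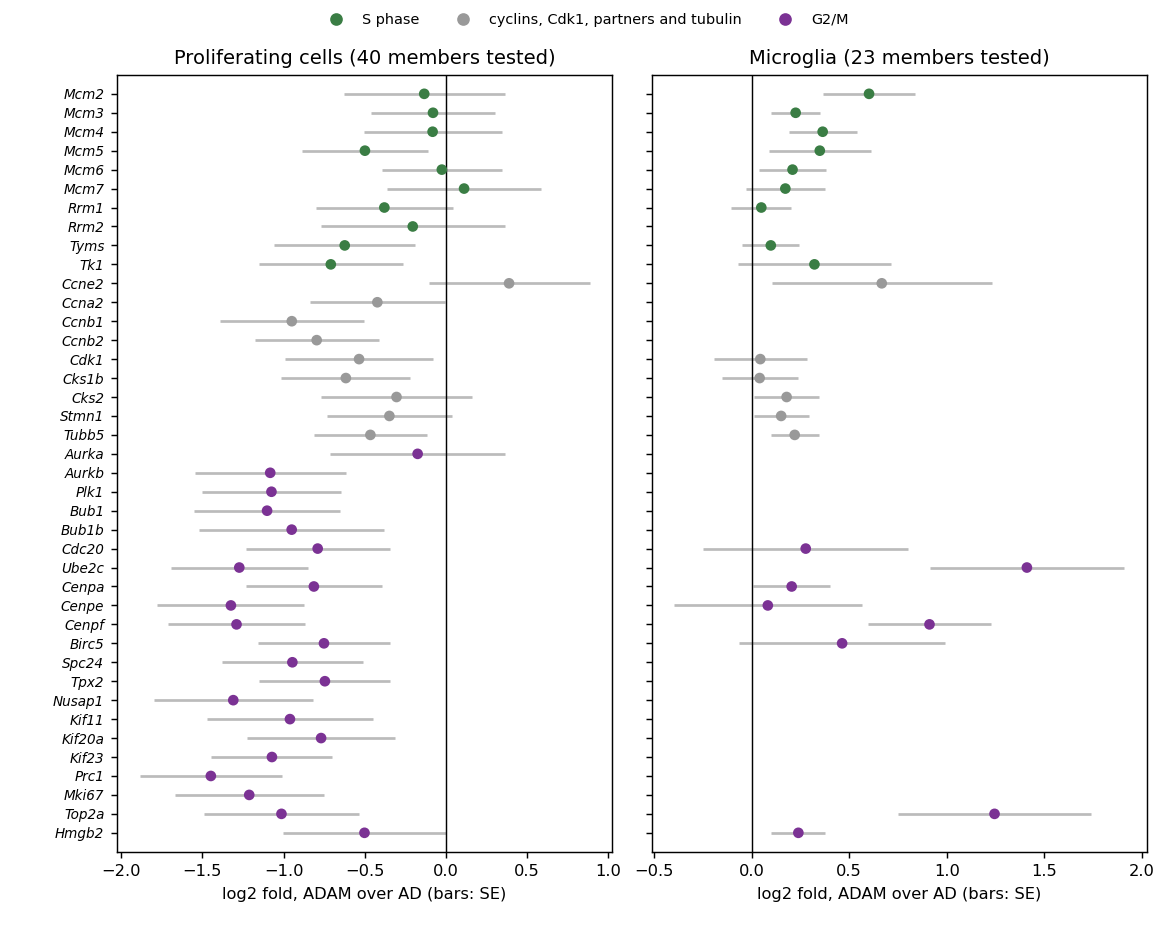
Log2 fold (ADAM over AD, x axis) of each tested member in proliferating cells (left) and microglia (right), with bars of 1 SE and colours by phase. In proliferating cells 2 of 40 members lie above 0 and the G2/M genes centre on −1.01, while in microglia all 23 tested members lie above 0, with a median of 0.23.

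The size of the difference in this class rested on ADAM 1. Summed over the 40 members, the level was 5923 and 12304 CPM in ADAM 1 and ADAM 2, against 13906 and 14306 in AD 1 and AD 2. Without ADAM 2 the test called 29 of 40 members lower (72.5%), where 10.5% of 7426 genes were called. Without ADAM 1 it called 2 members, Cenpf and Prc1, both lower, where 10.3% of 7283 genes were called, and the median fold was −0.35. With no filter on low counts it called Prc1, where 2.46% of genes were called. In both of these fits the lone ADAM library is assumed to vary like the AD pair. Without the cells led by neutrophil, monocyte or erythroid markers, an alternative chosen after seeing the data, the median was −0.64, with 0 members called and 1 of 40 positive.

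Within cells led by 1 marker list, levels in ADAM and AD came closer for lymphocytes. Summed over the 40 members without TMM scaling, cells led by T and NK markers had 13823 CPM (13 cells) and 16327 CPM (12 cells) in ADAM, against 13949 (21 cells) and 18919 (16 cells) in AD. Cells led by microglial markers had 3211 CPM (45 cells) and 9839 (11 cells) in ADAM, against 14615 (15 cells) and 10942 (18 cells) in AD. With only the cells that had at least 5 members, the microglia-led values were 5247 and 12152 CPM in ADAM, against 14615 and 11177 in AD. Over the whole class, cells with at least 5 members summed to 7855 and 11588 CPM in ADAM, against 13883 and 14804 in AD. This filter uses the members themselves and gives a description only.

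S phase genes took a larger share of the UMIs of S and G2/M members in ADAM over the class as a whole. Of the UMIs of the 10 S and 20 G2/M members other than Hmgb2, S members took 32.6% in ADAM 1 (exact 95% interval 30.4 to 34.9) and 30.7% in ADAM 2 (29.3 to 32.2), against 23.4% in AD 1 (21.5 to 25.4) and 18.6% in AD 2 (17.3 to 20). Both ADAM libraries were above both AD libraries. Cells with at least 5 members gave 32.4 and 30.7% in ADAM, against 23.4 and 18.6% in AD. Within cells led by T and NK markers the shares were 32.1 and 25.9% in ADAM, against 26.5 and 20% in AD, and ADAM 2 lay between the AD libraries. Within cells led by microglial markers they were 27.6 and 14.7% in ADAM, against 14.9 and 11.3% in AD, with ADAM 2 again between them. Cells led by monocyte or neutrophil markers had an S share of 34.3% in ADAM 2 (27 of its 52 cells) and 56.3% in ADAM 1 (4 cells), against 32.9% in AD 1 (1 cell) and 27.1% in AD 2 (2 cells). Outside the class, microglia leaned further to S members. Over all libraries their helicase subunits summed to 66.3 CPM and their nucleotide enzymes to 22.8, without TMM scaling. The kinetochore genes summed to 10.4 CPM there and the spindle genes to 1.74. The part of cells with few cycle transcripts in the shares was not tested. The measure was chosen after the values were seen, and it was not tested.

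**Figure D5:**
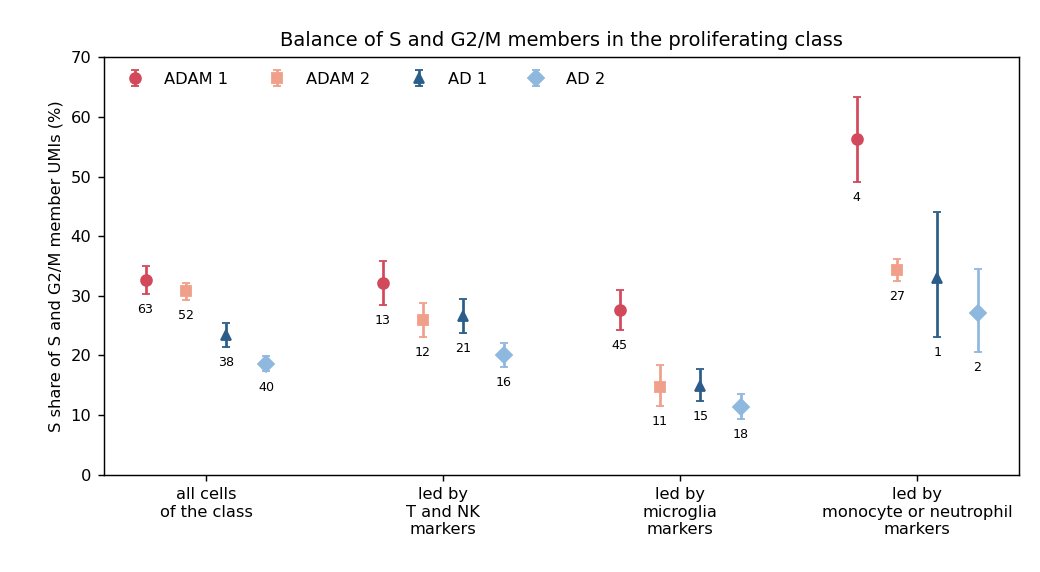
S members' share of the UMIs of 10 S and 20 G2/M members (y axis, %), for the whole proliferating class and for cells led by 1 marker list, with exact 95% intervals that cover counting error only and the number of cells under each point. Over the class ADAM stands at 32.6 and 30.7% and AD at 23.4 and 18.6%, while within T and NK led and microglia led cells ADAM 2 lies between the AD libraries.

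In microglia the members leaned the other way, with small folds and none past the test. Of the 40 members 23 passed the filter on low counts, and 0 were called, where 0.0419% of 11924 genes were called. All 23 of them had a positive fold, with a median of 0.23, against a positive fold in 51.0% of all genes tested and a median of 0.0035. The 17 members left out had 1 (Bub1) to 33 (Aurkb) UMIs in all microglia together, and with no filter 35 of 40 had a positive fold. At an unadjusted p under 0.05 there were 4 members (17.4%), where 2.35% of all genes tested had one.

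Those 4 were genes of low level. Ube2c had 1.29 and 2.09 CPM in ADAM, against 0.464 and 0.715 in AD (log2 fold 1.41, SE 0.50). Top2a had 1.77 and 1.12 CPM in ADAM, against 0.580 and 0.626 in AD (log2 fold 1.25, SE 0.50). Cenpf had 3.2 and 2.89 CPM in ADAM, against 1.63 and 1.61 in AD (log2 fold 0.91, SE 0.32). Mcm2 had 5.37 and 4.81 CPM in ADAM, against 3.37 and 3.35 in AD (log2 fold 0.60, SE 0.24). In each of the 4 both ADAM libraries were above both AD libraries, an order that their pick by p favours. The edgeR adjusted p was 1.0 after rounding for each.

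The more abundant members differed less. Tubb5 had 314 and 290 CPM in ADAM, against 271 and 248 in AD (log2 fold 0.22, SE 0.12), and Mcm3 had 38.2 and 33.1 CPM in ADAM, against 28.3 and 32.4 in AD. Hmgb2 had 106 and 133 CPM in ADAM, against 107 and 95.9 in AD, so its groups overlapped. Summed over the 40 members, microglia stood at 608 and 587 CPM in ADAM, against 529 and 494 in AD. Cells with at least 5 members after thinning were 4 of 2070 and 5 of 1802 in ADAM, against 9 of 1436 and 5 of 2914 in AD, so the summed level and the count of such cells did not have the same order. Without state 2, an alternative chosen after seeing the data, 22 members were tested, all positive, with a median of 0.21.

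By role in microglia, the median log2 fold was 0.29 over the 6 helicase subunits, 0.098 over 3 nucleotide enzymes, 0.11 over 4 cyclins, Cdk1 and partners and 0.33 over 4 kinetochore genes. Mcm4 had 8.37 and 7.94 CPM in ADAM, against 6.27 and 6.39 in AD (log2 fold 0.36, SE 0.18), and its groups did not overlap. Cdk1, the kinase of mitotic entry, had 5.99 and 5.54 CPM in ADAM, against 6.73 and 4.74 in AD, so ADAM lay between the AD libraries. Tyms had 12.4 and 11.1 CPM in ADAM, against 11.4 and 10.7 in AD, and Cks2 had 12 and 9.71 CPM in ADAM, against 9.29 and 9.83 in AD. Cenpa had 6.05 and 6.42 CPM in ADAM, against 5.22 and 5.54 in AD. Aurkb (33 UMIs) and Nusap1 (10 UMIs) were too low to be tested.

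Homeostatic state 0 had the same lean, with 15 of 17 tested members positive, a median of 0.23 and 0 called (0.101% of genes called). Unadjusted p-values under 0.05 were found for 2 of its members (Mcm4 and Cenpf), where 4.22% of genes had one. Mcm4 had 10.5 and 10.1 CPM in ADAM, against 7.67 and 6.28 in AD (log2 fold 0.61, SE 0.22). State 5 had 8 of 15 positive, a median of 0.065 and 0 called (0.153% of genes called). Hmgb2 alone had an unadjusted p under 0.05, where 5.3% of genes had one. Its Hmgb2 had 72.4 and 101 CPM in ADAM, against 69.3 and 62.1 in AD (log2 fold 0.41, SE 0.15, edgeR adjusted p = 0.729), and it was past the test without ADAM 1 (log2 fold 0.62), where 1.31% of genes were called.

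In state 4, Stmn1 had 61.7 and 89.4 CPM in ADAM, against 23.8 and 22.0 in AD (log2 fold 1.67, SE 0.44, edgeR adjusted p = 0.340), and 0 of 4 members were called (0.127% of genes called). Stmn1 alone of the 4 had an unadjusted p under 0.05, where 3.35% of genes had one. State 2 had 2 members tested and state 3 had 3, with 0 called in either (0.0635% and 0.313% of genes called) and 0 at an unadjusted p under 0.05 (3.05% and 4.95% of genes).

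Monocytes held the largest fold of a tested member in these sets. Stmn1 had 27.9 and 30 CPM in monocytes of ADAM, against 8.09 and 3.37 in AD (log2 fold 2.37, SE 0.48, edgeR adjusted p = 0.149). In the same monocytes the neutrophil markers summed to 4190 and 71052 CPM in ADAM, against 143 and 2055 in AD, and their part in the result was not tested. Cks2 went the other way, with 56.8 and 55.8 CPM in ADAM, against 84.9 and 106 in AD (log2 fold −0.77, SE 0.24, edgeR adjusted p = 0.372). For both genes the groups did not overlap, and 0 of 6 tested members were called (0.155% of genes called), while 8.51% of genes had an unadjusted p under 0.05 as these 2 did. Stmn1 and Ube2c were called without ADAM 1, where 4.37% of genes were. With no filter Stmn1, Ube2c and Ccnb2 were called, where 2.12% of genes were.

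In macrophages 0 of 7 tested members were called (0.0154% of genes called), 0 had an unadjusted p under 0.05 (2.21% of genes had one), and ADAM 2 alone stood high. Stmn1 had 50.6 and 225 CPM in macrophages of ADAM, against 24.1 and 37.3 in AD, and Mcm6 had 12.9 and 75.5 CPM in ADAM, against 24.1 and 7.77 in AD. The summed level was 676 and 1276 CPM in ADAM, against 647 and 623 in AD. In the same macrophages red cell markers summed to 1.14 and 13805 CPM in ADAM, against 0 and 0 in AD, and neutrophil markers to 11.4 and 1743 CPM in ADAM, against 13.1 and 289 in AD. Their part in the result was not tested. With no filter Stmn1 was called, where 0.0801% of genes were. Without ADAM 1, 5 of 11 members were called higher, where 1.84% of genes were called, and cells with at least 5 members after thinning were 4 of 67 in ADAM 2 and 0 of 125 in ADAM 1, against 0 of 57 in AD 1 and 1 of 90 in AD 2.

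T and NK cells outside the class showed no lean. Of 17 tested members 8 had a positive fold, the median was −0.0078 and 0 were called (0.241% of genes called), with 0 at an unadjusted p under 0.05 (5.2% of genes had one). The summed level was 955 and 935 CPM in ADAM, against 958 and 940 in AD.

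Whether the genotype difference itself differed between proliferating cells and microglia was tested as an interaction with library as a term, a test chosen after seeing the data. edgeR called 0 of 11720 genes and 0 of 40 members, with 744 genes (6.35%) and 12 members at an unadjusted p under 0.05. The difference was negative in 38 of 40 members, with a median of −0.94, against 0.0040 over all genes. Ube2c and Nusap1 came closest, with an edgeR adjusted p of 0.0798 each. In microglia alone, 23 of the 40 members passed the filter on low counts. The others, Nusap1 among them, entered this fit through their level in proliferating cells, so their differences rest on few microglial UMIs.

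Other genes of the cycle were taken from 2 lists, 61 further S and G2/M genes and 26 cyclins, inhibitors and regulators of entry. In proliferating cells 60 of the 61 were tested, 0 passed, 3 were positive, 9 had an unadjusted p under 0.05 and the median was −0.65. Of all genes tested there, 0.0842% passed, 52.1% were positive and 8.73% had such a p. In microglia 37 were tested, 0 passed, 28 were positive, 2 had such a p and the median was 0.18. Of all genes tested there, 0.0419% passed, 51.0% were positive and 2.35% had such a p. Of the 26 regulators, 25 were tested in proliferating cells with a median of −0.31 and 26 in microglia with a median of 0.050. Of these, 0 passed in either, and 3 and 2 had an unadjusted p under 0.05.

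In proliferating cells the smallest p of these lists was that of Cdc25b, the phosphatase that starts Cdk1 at mitotic entry, with 18.0 and 20.9 CPM in ADAM, against 82.5 and 129 in AD (log2 fold −2.44, SE 0.44, edgeR adjusted p = 0.106). The Cdk4 and Cdk6 inhibitor Cdkn2c had 38.7 and 59.3 CPM in ADAM, against 165 and 119 in AD (log2 fold −1.52, SE 0.40, edgeR adjusted p = 0.243). Pcna, the sliding clamp of the replication fork, had 58.0 and 47.7 CPM in ADAM, against 196 and 107 in AD (log2 fold −1.5, SE 0.42, edgeR adjusted p = 0.275). All 3, picked for the smallest p of these lists, were lower in both ADAM libraries than in both AD libraries.

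Pcna was the only gene of either list past the test in any of the 10 sets. In state 5 it fell to 14.8 and 13 CPM in ADAM, against 35.3 and 31.1 in AD (log2 fold −1.25, SE 0.16, edgeR adjusted p = 0.0030). In all microglia it had 13.6 and 12.8 CPM in ADAM, against 31.7 and 22.7 in AD (log2 fold −1.02, SE 0.18, edgeR adjusted p = 0.320). Other sets gave folds of like size that missed the test, with 17.5 and 9.75 CPM in T and NK cells of ADAM, against 38.5 and 26.7 in AD (log2 fold −1.27, SE 0.27, edgeR adjusted p = 0.137). Monocytes had 14.5 and 10.7 CPM in ADAM, against 32.4 and 27.0 in AD (log2 fold −1.26), and the log2 fold was −1.36 in macrophages, −1.64 in state 3, −1.35 in state 4 and −0.72 in state 0. Its direction in microglia was opposite to that of Lin9, a subunit of the MuvB complex, with 13.7 and 14.4 CPM in ADAM, against 10.9 and 11.2 in AD, and of Myc, with 20.4 and 23.3 CPM in ADAM, against 15.1 and 18.1 in AD. Pcna lies 3.55 Mb from Mertk on chromosome 2 and has pseudogene copies that can share its reads, so its level is uncertain.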

How the data were processed

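Deposited values are raw UMI counts per gene and cell, made by the authors with Cell Ranger 3.1.0 and Seurat 3.2.1.9002 on mm10 named in the submitters' processing notes. The authors also deposited a class, a microglia state, doublet marks, the percent of mitochondrial UMIs and a doublet score per cell. The score and the embedding were not used, and no source used here gives the filters on cells. The counts per cell summed to the authors' totals in all 15451 cells.

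The 823 cells marked as doublets have no class and stayed out of every test. The 216 microglia and T cell doublets have the microglia class but no state, and count only in shares of cells with a class. UMIs were summed per library within 10 sets holding at least 20 cells in each library. Genotypes were compared with edgeR 4.0.16 (TMM, minimum count 10, robust quasi-likelihood test, Benjamini-Hochberg over all genes of a set, threshold 0.05) in R 4.3.3, with DESeq2 1.42.0 and limma 3.58.1 as alternatives. The tests were checked on simulated data. For shares of cells, cells were thinned to 2000 UMIs with numpy 2.4.6 and scipy 1.17.1. Levels up to the genotype test are CPM without TMM. Any member could be named. Values per library were to be given for the members of most UMIs in each role and for those past a test, and of the other genes for those past a test and the 3 of smallest p in microglia and in proliferating cells. Further members were given values after their p-values were seen. The members, the lists of other genes and the marker lists were chosen with earlier results of these data known. Replicate numbers do not mark shared animals in the labels.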

Additional observations from a re-analysis of the deposited data

Results flagged for a closer look

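Summed over the 40 members, both ADAM libraries stood below both AD libraries in proliferating cells and above both in 6 of the 9 other sets, not in monocytes, T and NK cells or state 3. The log2 fold (ADAM over AD) in proliferating cells minus that in another set was −0.85 for microglia, −1.25 for macrophages, −0.85 for state 0, −1.46 for state 2, −0.89 for state 4 and −0.81 for state 5. The 6 differences share the same proliferating cells, and the states are part of the microglia, so they are not separate observations. Gene by gene the difference from microglia was tested (0 of 40 members called by edgeR, 12 at an unadjusted p under 0.05). Of all 11720 genes in that test, 0 were called and 6.35% had an unadjusted p under 0.05. The other differences were not tested. Of the 40 members, 23 passed the filter on low counts in microglia alone, and the others entered that test through proliferating cells. In proliferating cells ADAM 1 held 22 cells with fewer than 5 members, and without cells of fewer than 5 members the sums before TMM scaling were 7855 and 11588 CPM in ADAM, against 13883 and 14804 in AD.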

How the results depend on the processing

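With 2 libraries a genotype, the loss of 1 decides most values, and low counts limit the members outside proliferating cells. With no filter on low counts, members past the test numbered 1 in macrophages, 3 in monocytes and 1 in proliferating cells, and the median log2 fold was 1.41 in macrophages, 0.64 in monocytes, 0.050 in T and NK cells, 2.06 in state 2 and 0.64 in state 4. With the replicate block the median in state 4 was 0.41. The block called 80 genes in proliferating cells, 35 in state 0 and 0 in microglia, with 0 members in any set. Same-numbered libraries correlated at −0.21 in microglia, −0.124 in macrophages, −0.336 in state 2 and −0.0132 to 0.118 elsewhere, and crossed numbers, a pairing chosen after seeing the data, called 8, 9 and 0 genes in the first 3 sets and 0 members.

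The share of cells with at least 5 members (ADAM minus AD, percentage points) was, without thinning, 1.67 in microglia, 11.9 in macrophages, 9.67 in monocytes, −0.607 in T and NK cells, 2.73 in state 0 and 0.105 in state 5. With at least 3 members it was 0.358 in microglia, 6.72 in macrophages, 2.95 in monocytes, 0.501 in state 0 and −0.315 in state 5. With at least 8 members, or with the 33 members other than the broad ones, it was 0 in monocytes and 0 in state 5, and thinned to 1000 UMIs it was 0 in state 5. The share of proliferating cells differed by 1.42 points among cells other than microglia, where ADAM 2 lay between the AD libraries. Without the 7 broad members, the log2 ratio of summed levels was 0.28 in microglia, 0.82 in monocytes, 0.031 in T and NK cells, 1.54 in state 2, 0.34 in state 3, 0.71 in state 4 and 0.022 in state 5.

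Leaving out each replicate, members past the test ranged from 0 to 29 in proliferating cells, 0 to 5 in macrophages, 0 to 2 in monocytes and 0 to 1 in state 5. Median log2 folds ranged from −1.33 to −0.35 in proliferating cells, 0.15 to 0.32 in microglia, −0.053 to 2.11 in macrophages, 0.15 to 0.96 in monocytes, −0.12 to 0.059 in T and NK cells, 0.14 to 0.52 in state 0, 0.35 to 0.85 in state 2, −0.42 to 0.41 in state 3, 0.025 to 0.57 in state 4 and −0.031 to 0.24 in state 5. Shares of cells with 5 members ranged from −35.6 to 4.64 points in proliferating cells, −0.391 to 0.0638 in microglia, −0.556 to 5.41 in macrophages, 0 to 1.42 in monocytes, −0.380 to 0.185 in T and NK cells, −0.990 to 0.166 in state 0 and −0.141 to 0 in state 5, and the share of the class from 0.307 to 0.793. Log2 ratios of summed levels ranged from −1.25 to −0.20 in proliferating cells, 0.18 to 0.28 in microglia, 0.091 to 1.01 in macrophages, 0.051 to 0.56 in monocytes, −0.020 to 0.0096 in T and NK cells, 0.13 to 0.32 in state 0, 0.71 to 0.97 in state 2, −0.23 to 0.050 in state 3, 0.17 to 0.36 in state 4 and 0.15 to 0.22 in state 5. In proliferating cells the log2 folds of Cks2 (−1.15 to 0.23), Hmgb2 (−1.48 to 0.091) and Mcm3 (−0.50 to 0.26) were positive only without ADAM 1. Of the values of single named genes under an alternative, 345 kept their direction and side of the threshold and 35 moved past it. The cause of these changes was not tested.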
